A study of Mus musculus with 6 samples.

Results

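The cytosolic ribosomal protein genes held nearly level signals in the mouse ileum after bile duct ligation and after ligation with GW4064, and 1 probe set of Rps9 stood far apart from the rest. They were taken from the array's annotation as the genes whose symbol starts with Rpl or Rps followed by a digit or p, leaving out the Rps6k kinases and Rps6kl1. The rule found 48 of the 12393 genes with a probe set of their own, on 99 of 22626 probe sets. A probe set is a group of short oligonucleotides that together report 1 transcript. After probe sets of low signal were left out, 85 of the 99 probe sets and 45 of the 48 genes were tested, among 13575 probe sets and 7919 genes in all. Rpl39l, Rpl3l and Rps15a-ps6 had no probe set above the bound, a signal of 37.1, so they have no measured difference. The other 11 probe sets left out belonged to genes tested on another probe set. Rps15a-ps6 and Rps4l, both among the 48, are listed as transcribed pseudogenes in RefSeq.

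Ribosomal proteins coat the ribosomal RNA of the small (Rps) and large (Rpl) subunit, and each ribosome holds about equal numbers of nearly all of them. Their mRNAs mostly begin with a run of pyrimidines, the 5' terminal oligopyrimidine (TOP) motif, through which mTORC1 signalling controls how much of each is translated. In the intestine the demand for new ribosomes is highest in the dividing cells of the crypts, below the absorptive cells of the villi.

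Gene expression in the ileum, the last stretch of the small intestine, was measured on 6 Affymetrix Mouse Genome 430A 2.0 arrays, 2 for each of 3 groups. All mice were wild type males of a mixed C57BL/6:129Sv background, aged 8 to 10 months, and were gavaged every day, starting 2 days ahead of surgery and going on for 5 days afterwards. Vehicle was given to the sham-operated Sham_Vehicle mice and to the BDL_Vehicle mice, whose common bile duct was ligated. The BDL_GW4064 mice were ligated too and were given GW4064 at 100 mg/kg/day. GW4064 is a synthetic compound that activates FXR, the nuclear receptor for bile acids, and tying the duct keeps bile out of the gut. The series is concerned with how FXR regulates antibacterial defence in the small intestine. The labels do not tie the replicate arrays to different animals. The p-values therefore reflect only how far these samples differ from one another, and that spread may be technical. In whole ileum, fewer cells of a type and less RNA per cell cannot be told apart.

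The values are MAS5 signals, the array software's linear intensity for a probe set, with the mean after trimming 2% at each end at about 200.1 on every array. Of 10 epithelial markers none lay below the bound on every array, and their summed signal was 36825.1 to 42698.7. Single markers differed by -1.20 to 0.16 on the log2 scale in BDL_Vehicle minus Sham_Vehicle, 3 higher and 7 lower. In BDL_GW4064 minus BDL_Vehicle they differed by -1.39 to 1.20, again 3 higher and 7 lower. The sum therefore does not show that each marker was steady. The 5' control probe set of 18S ribosomal RNA read 88, 67.3 and 88.7 in both Sham_Vehicle arrays and BDL_Vehicle replicate 1, against 13.3 in BDL_Vehicle replicate 2 and 9 and 8.6 in the BDL_GW4064 pair. The ratio of 3' to 5' actin signal was 1.73 in Sham_Vehicle replicate 2 and 1.09 to 1.22 elsewhere. The summed signal of 8 smooth muscle markers was 12458.4 in BDL_GW4064 replicate 2 and 1581.1 to 2096.6 in the other 5 arrays. That of 8 fibroblast markers was 3166.4 and 4158.3 in the BDL_GW4064 arrays and 1068.1 to 1740.6 in the others. The 3 adipose markers on the array summed to 1041.6 in BDL_GW4064 replicate 2 and 117.5 to 475.1 elsewhere. No marker of these lists lay below the bound on every array, and their part in the results was not tested.

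Differences are given as log2(signal + 4) with the standard error from limma, a linear model fitted across all 13575 probe sets, and p-values are adjusted over all of them by the Benjamini-Hochberg method at a threshold of 0.05. Each gene is represented by the probe set with its highest mean signal unless another is named. Across the family these representative probe sets moved little. The highest of the 6 arrays exceeded the lowest by a median of 1.19-fold over the 45 genes, against 1.45-fold over the 7919 genes. For 28 of the 45 genes (62.2%) this range was under 1.25-fold, as it was for 18.7% of all genes. The median SD between arrays of a group was 0.104 over the 85 probe sets and 0.185 over all. It was 0.123 over the 1537 probe sets whose signal was at or above the lower quartile of the ribosomal ones. The fold ranges above and the intervals given below were set against all genes only, not against genes of like signal.

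The first comparison asked how tying the duct altered the ileum, as BDL_Vehicle minus Sham_Vehicle. By limma, 0 of the 85 ribosomal probe sets passed the adjusted threshold, where 0.0295% of all probe sets did. At an unadjusted p under 0.05 there was 1 of 85 (1.18%), against 6.37% of all probe sets. The median difference of the 45 genes was 0.01, with 24 higher and 21 lower and quartiles of -0.05 and 0.07, and 35 were higher after centring each array on its median. Over all genes the median was -0.01, with 47.9% higher and quartiles of -0.17 and 0.14. The 95% interval lay within 1.5-fold either way for 35 of the 45 genes (77.8%), against 45.9% of all genes.

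The second comparison asked what GW4064 altered in ligated mice, as BDL_GW4064 minus BDL_Vehicle, and it shares the BDL_Vehicle arrays with the first. Again 0 of 85 probe sets passed, where 0.0516% of all probe sets did, and at an unadjusted p under 0.05 there were 5 (5.88%) against 7.48%. The median was -0.03, with 16 higher and 29 lower, beside a median of 0.00 and 50.4% higher over all genes. That direction did not hold: 27 of the 45 were higher without BDL_Vehicle replicate 1 and 27 without BDL_GW4064 replicate 1. After centring each array on its median, 8 were higher. With the 18S array set as a term 26 were higher. For this comparison that term sets BDL_GW4064 against BDL_Vehicle replicate 2 alone, as leaving out BDL_Vehicle replicate 1 does. On the same representative probe sets both gave 26, so they count as a single alternative. Again 35 of the 45 genes had a 95% interval within 1.5-fold, against 47.1% of all genes.

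BDL_GW4064 minus Sham_Vehicle shares its arrays with both of these comparisons and spans both interventions. The median was 0.02, with 23 higher and 22 lower, beside 0.01 over all genes, and 33 were higher with the 18S array set as a term. By limma 1 of 85 probe sets passed, 1.18% where 0.0368% of all probe sets did, and this was the probe set of Rps9 described further on. At an unadjusted p under 0.05 there were 9 (10.6%), against 16% of all probe sets. The interval lay within 1.5-fold for 32 of the 45 genes (71.1%), against 39.5% of all genes.

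**Figure D1:**
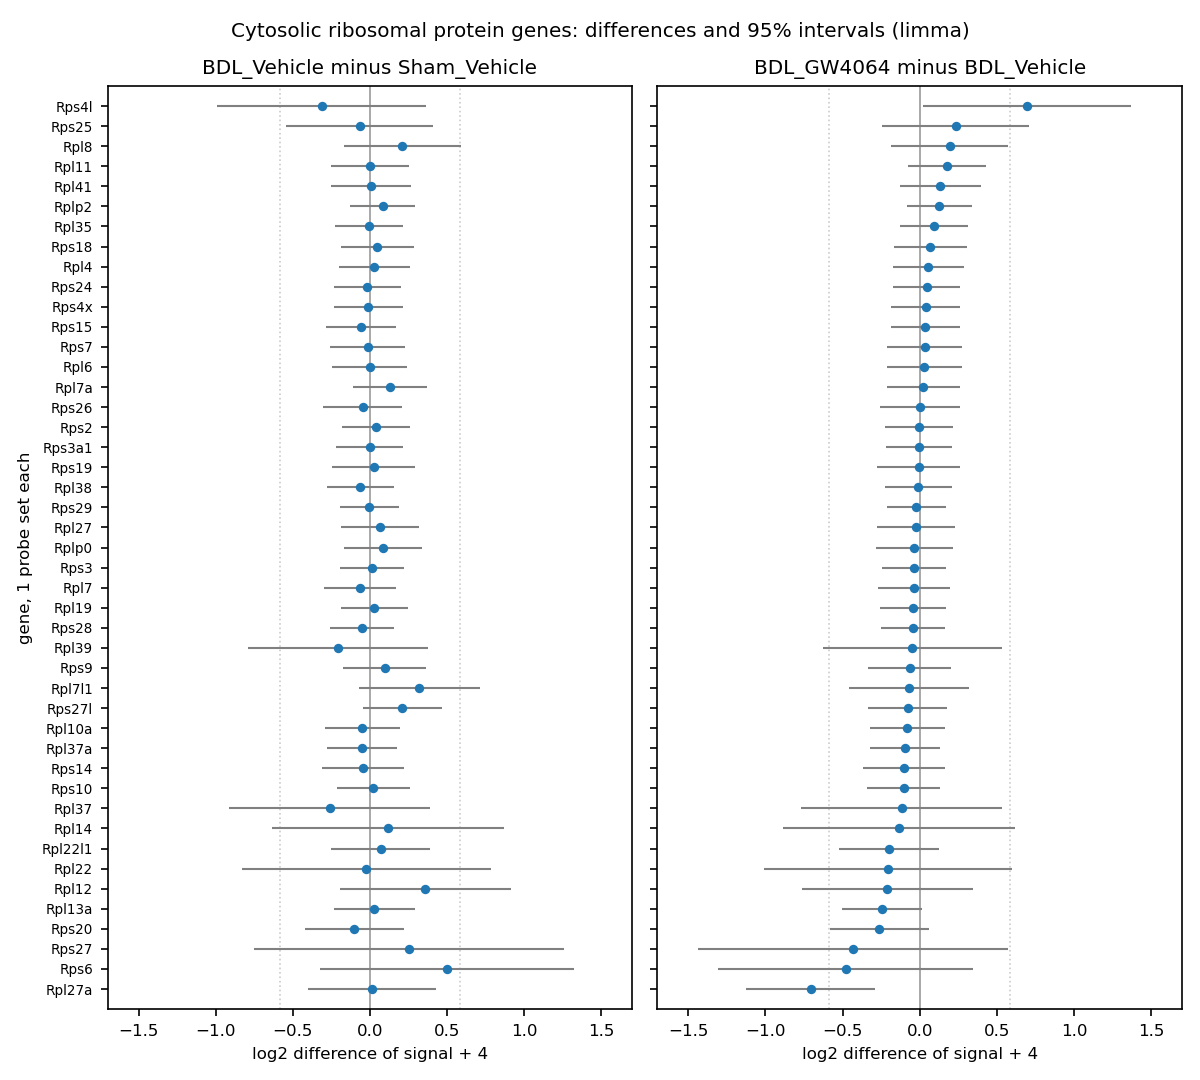
Log2 difference (point) and 95% interval from limma (line) of each of the 45 tested genes on its representative probe set, for BDL_Vehicle minus Sham_Vehicle on the left and BDL_GW4064 minus BDL_Vehicle on the right, ordered by the right panel; dotted lines mark 1.5-fold either way. Most points lie close to 0 in both panels, and the widest intervals are those of Rps27, Rps6, Rpl22 and Rpl14.

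The start sites of these genes were read for the features for which the family is known, and each feature was missing from most windows. RefSeq windows on GRCm38.p6, from 250 bases before to 50 after the annotated start, were at hand for 41 of the 48 genes, 49 windows in all. An uninterrupted run of at least 6 C or T letters on the gene's strand that included the first transcribed base or the base before it was found in 14 of these windows (28.6%) and in 10.7% of all 32851 windows. CCGGAAG, on either strand, was found in 20 (40.8%) and in 8.86% of all. CTTTCC on either strand was in 44.9% against 26.6%, AAGATGGC in 8.16% against 2.75%, and TATAAA in 12.2% against 13.6%. A match describes the letters only, and a start annotated a few bases off would hide or create a run.

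Most windows had no such run, among them those of Rpl11, Rpl13a and Rps27l, whereas most of the examples shown here have one. Each example gives 45 bases before and 15 bases after the annotated start, 5' to 3' on the gene's strand. The pyrimidine run is in capitals, and the examples were not picked to be typical. The examples are Rps9 (chr7:3703996-3704055, plus strand), Rps10 (chr17:27635230-27635289, minus), Rps18 (chr17:33955651-33955710, minus), Rplp2 (chr7:141447606-141447665, plus), Rpl7a (chr2:26910762-26910821, plus) and, with no run at its start, the paralogue Rpl7l1 (chr17:46782642-46782701, minus).
Rps9: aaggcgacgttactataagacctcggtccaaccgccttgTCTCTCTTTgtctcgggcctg
Rps10: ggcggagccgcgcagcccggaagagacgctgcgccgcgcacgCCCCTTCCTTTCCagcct
Rps18: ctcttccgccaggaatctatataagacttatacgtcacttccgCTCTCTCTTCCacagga
Rplp2: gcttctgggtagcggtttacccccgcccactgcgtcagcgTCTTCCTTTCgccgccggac
Rpl7a: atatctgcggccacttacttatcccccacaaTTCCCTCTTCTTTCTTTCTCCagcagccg
Rpl7l1: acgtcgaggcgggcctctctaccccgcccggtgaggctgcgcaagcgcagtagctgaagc
The runs shown were 9 letters long in Rps9, 10 in Rplp2, 11 in Rps18, 13 in Rps10 and 21 in Rpl7a.

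In the small subunit, 21 of 22 genes were tested and their medians were 0.00 after ligation, -0.01 with GW4064 and 0.02 for BDL_GW4064 against Sham_Vehicle. The pseudogenes Rps4l, which was tested, and Rps15a-ps6, which was not, are counted among the 22 by their symbols. Rps29, a small zinc-binding protein of the subunit head, was among the steadiest, with signals of 5125.6 and 5169.6 in Sham_Vehicle, 5133.7 and 5131.6 in BDL_Vehicle, and 5005.8 and 5096.7 in BDL_GW4064. Its differences were 0.00 ± 0.08 (SE, n = 2 arrays a group here and throughout) and -0.02 ± 0.08. The 2 lowest arrays were those of BDL_GW4064, by about the width of 1 standard error or less. Rps3, which lines the entry of the mRNA channel, differed by 0.01 ± 0.09 after ligation and -0.04 ± 0.09 with GW4064, and its signals spanned 3558.1 to 3747.4. Rps4x, the X-linked member of the subunit, differed by -0.01 ± 0.10 and 0.04 ± 0.10.

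Rps20, a protein of the subunit head, had signals of 3194.7 and 3721.8 in Sham_Vehicle, 3567 and 2897.1 in BDL_Vehicle, and 2527.6 and 2841.7 in BDL_GW4064. Both BDL_GW4064 arrays lay below all other arrays. The difference with GW4064 was -0.26 ± 0.14 (limma adjusted p = 0.765), and that against Sham_Vehicle was -0.36 ± 0.14 (adjusted p = 0.272), so neither passed. The array BDL_Vehicle replicate 2 lay on the side of the BDL_GW4064 arrays, as its 18S control did. Measured from that array alone, the difference of BDL_GW4064 was -0.11, and the BDL_Vehicle arrays differed from each other by -0.30.

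Rps6, the substrate of the S6 kinases downstream of mTORC1, was measured on a dim probe set with 106.9 and 58.6 in Sham_Vehicle, 144.4 and 89.6 in BDL_Vehicle, and 99.1 and 65.2 in BDL_GW4064. The groups overlapped and the differences of 0.50 ± 0.35 and -0.48 ± 0.35 were within about 1.5 standard errors of 0. Rps25, which some viral and cellular mRNAs need for internal initiation, differed by -0.07 ± 0.20 and then 0.23 ± 0.20 with GW4064. Rps28 had 1 representative value that did not overlap after ligation, at -0.05 ± 0.09, a difference smaller than its standard error.

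In the large subunit 24 of 26 genes were tested, with medians of 0.02, -0.04 and 0.01 in the same order. Rpl8, a core protein close to the peptidyl transferase centre, gave 2488 and 1830.9 in Sham_Vehicle, 2243 and 2718.5 in BDL_Vehicle, and 2810 and 2841 in BDL_GW4064. The BDL_GW4064 arrays were the highest, and the low array was Sham_Vehicle replicate 2, which also had the high actin ratio. The difference from Sham_Vehicle was 0.40 ± 0.16 (limma adjusted p = 0.29), the largest positive one among the 45 genes with all arrays, and it did not pass. Without Sham_Vehicle replicate 2 it was 0.18. The difference after ligation was 0.21 ± 0.16, and it was -0.01 without Sham_Vehicle replicate 2.

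Rpl27a, a protein of the large subunit, had the largest negative difference with GW4064 among the representative probe sets. The only other probe set of its own, 1419799_at, read 1 to 4.1, below the bound. The representative was dim, with signals of 168.2 and 157.6 in Sham_Vehicle, 166 and 162.6 in BDL_Vehicle, and 111.3 and 88.1 in BDL_GW4064. Both BDL_GW4064 arrays lay below the other 4, which were close together. The difference was 0.01 ± 0.18 after ligation, -0.71 ± 0.18 with GW4064 (limma adjusted p = 0.358) and -0.69 ± 0.18 against Sham_Vehicle (adjusted p = 0.19). From BDL_Vehicle replicate 2 alone, whose 18S signal was low as in BDL_GW4064, it was -0.69.

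Rpl11, which with Rpl5 and 5S RNA can bind Mdm2 and stabilise p53, differed by 0.00 ± 0.11 after ligation and 0.18 ± 0.11 with GW4064. Its BDL_GW4064 signals of 2159.5 and 2068.1 lay above the range of 1782.4 to 1950.7 in the other arrays. Rpl13a, also known from interferon-induced translational silencing, differed by 0.03 ± 0.11 and -0.24 ± 0.11 (limma adjusted p = 0.696). Its 3 other probe sets differed by -0.01 to -0.10 with GW4064 and overlapped between the groups.

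Rpl7a differed by 0.13 ± 0.10 after ligation and 0.02 ± 0.10 with GW4064, with both Sham_Vehicle arrays below the ligated ones. Rpl35 at 0.09 ± 0.10 with GW4064 and Rpl10a at -0.13 ± 0.10 against Sham_Vehicle were further genes whose arrays did not overlap. Neither passed, and each difference was smaller than 1.5 standard errors. The other tested probe sets of Rpl35 differed by -0.18 to 0.01 with GW4064 and overlapped between the groups. Rpl22 differed by -0.02 ± 0.35 and -0.21 ± 0.35, and Rpl39, which lines the exit tunnel, by -0.21 ± 0.25 and -0.05 ± 0.25.

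Counts of probe sets whose arrays did not overlap were at or below the background in most directions. After ligation 11 of 85 were higher (12.9%, against 18.2% of all) and 6 lower (7.06%, against 18.7%). With GW4064, 16 were higher (18.8%, against 17.4%) and 11 lower (12.9%, against 18.1%). For BDL_GW4064 against Sham_Vehicle 16 were higher (18.8%, against 23.8%) and 25 lower (29.4%, against 26.3%). Differences beyond 0.5 either way were found for 2 probe sets after ligation (2.35%, against 8.5%), 6 with GW4064 (7.06%, against 9.14%) and 4 against Sham_Vehicle (4.71%, against 16.5%).

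The stalk of the large subunit, which recruits elongation factors, was measured by Rplp0 and Rplp2. Rplp2 gave 4400.1 and 4046.8 in Sham_Vehicle, 4422.7 and 4511.2 in BDL_Vehicle, and 4834.8 and 4922 in BDL_GW4064. The 3 groups did not overlap, and the differences were 0.08 ± 0.09 after ligation, 0.13 ± 0.09 with GW4064 and 0.21 ± 0.09 against Sham_Vehicle (limma adjusted p = 0.313). Rplp0, often used as a reference transcript and the base on which the stalk is built, gave 3375.3 and 3177.4, then 3293.6 and 3666.8, then 3200.1 and 3599.7 in the same order. Its groups overlapped, at 0.09 ± 0.11 and -0.03 ± 0.11. Rpl12, at the foot of the stalk, was read by a dim probe set that was higher in both BDL_Vehicle arrays, by 0.36 ± 0.24 (adjusted p = 0.799).

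Of the paralogues, Rps27l, Rpl22l1, Rpl7l1 and Rps4l were tested. Rps27l, which p53 can induce, had 3 probe sets, and both BDL_Vehicle arrays were above both Sham_Vehicle arrays on each. The brightest gave 1744.4 and 1741.6 in Sham_Vehicle, 1941.9 and 2091.9 in BDL_Vehicle, and 2019.9 and 1805.3 in BDL_GW4064. The differences after ligation were 0.21 ± 0.11, 0.12 ± 0.10 and 0.17 ± 0.12 (limma adjusted p = 0.751, 0.834 and 0.799), and with GW4064 they were -0.08, -0.14 and -0.11. These probe sets share the transcript and are not independent of each other.

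Rps27, the gene it resembles, was read on a dim probe set between 40.5 and 114.6, at 0.25 ± 0.43 and -0.43 ± 0.43. Rpl7l1 gave 199.4 and 217.8 in Sham_Vehicle, 290.6 and 234.9 in BDL_Vehicle, and 235.6 and 262.5 in BDL_GW4064. Its Sham_Vehicle arrays were the lowest, and the difference after ligation was 0.32 ± 0.17 (limma adjusted p = 0.751) on this probe set and 0.16 ± 0.21 on its second, where the groups overlapped. Rpl22l1 differed by 0.07 ± 0.14 and -0.20 ± 0.14.

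Rps4l, listed as a transcribed pseudogene in RefSeq, gave 44.4 and 49.2, then 44.4 and 30.5, then 74.7 and 51.6 in the order of the groups. It was highest in BDL_GW4064, by 0.69 ± 0.29 over BDL_Vehicle (limma adjusted p = 0.649), close to the bound of 37.1. Rpl39l and Rpl3l, known from testis and striated muscle, read 2.6 to 11.8 and 1.4 to 5.6 on all arrays.

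Rps9 was where probe sets of a gene disagreed most. Rps9 encodes a protein at the entry of the mRNA channel of the small subunit and had 3 tested probe sets. Its brightest, 1433689_s_at, read 3106.6 and 3108.9 in Sham_Vehicle, 3302 and 3342.3 in BDL_Vehicle, and 2873.7 and 3507.8 in BDL_GW4064. The BDL_GW4064 arrays enclosed the other 4, and the differences were 0.10 ± 0.12 after ligation and -0.07 ± 0.12 with GW4064. The dim 1426958_at read 84.4 and 62.2, then 93.4 and 92.2, then 89.9 and 102.7, at 0.34 ± 0.21 and 0.05 ± 0.21.

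The third Rps9 probe set, 1434624_x_at, read 850 and 685.5 in Sham_Vehicle, 651.8 and 296.2 in BDL_Vehicle, and 45.9 and 60.8 in BDL_GW4064. The groups did not overlap, the BDL_Vehicle arrays lay far apart from each other, and both BDL_GW4064 arrays were close to the bound. Group means were 768 ± 116, 474 ± 251.4 and 53.4 ± 10.5 (SD, n = 2). Against Sham_Vehicle the signal fell by 3.75 on the log2 scale (SE 0.34, 95% interval -4.55 to -2.96), or 13.5-fold, with a limma adjusted p of 0.0254. No probe set among the 13575 had a lower difference in that comparison.

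With GW4064 the difference of this probe set from BDL_Vehicle was -2.96 ± 0.34 (95% interval -3.76 to -2.17, 7.80-fold), with an adjusted p of 0.0502 that just missed the threshold. After ligation alone it was -0.79 ± 0.34 (adjusted p = 0.751). Between arrays of like 18S signal, BDL_Vehicle replicate 1 minus Sham_Vehicle was -0.23 and BDL_GW4064 minus BDL_Vehicle replicate 2 was -2.40, while the BDL_Vehicle arrays differed from each other by -1.13. The call against Sham_Vehicle was lost without Sham_Vehicle replicate 1 (adjusted p = 0.101), Sham_Vehicle replicate 2 (0.113) or BDL_GW4064 replicate 2 (0.0629), and held under 11 of 17 alternatives, with limma adjusted p from 0.00807 to 1. With GW4064 it passed under 5 of 18, from 0.0171 to 0.184, among them without BDL_Vehicle replicate 2 (0.0191).

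The log2 ratio of 1434624_x_at to 1433689_s_at within each array was -2.02 ± 0.22 in Sham_Vehicle, -2.91 ± 0.81 in BDL_Vehicle and -5.80 ± 0.06 in BDL_GW4064 (SD, n = 2). The probe sets therefore did not report the same difference for the same gene symbol. With 2 arrays against 2, an exact permutation test cannot give a two-sided p below 0.333. Which transcripts the oligonucleotides of this probe set match was not analysed here. The suffix _x_at marks a set in which some oligonucleotides also match other transcripts.

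**Figure D2:**
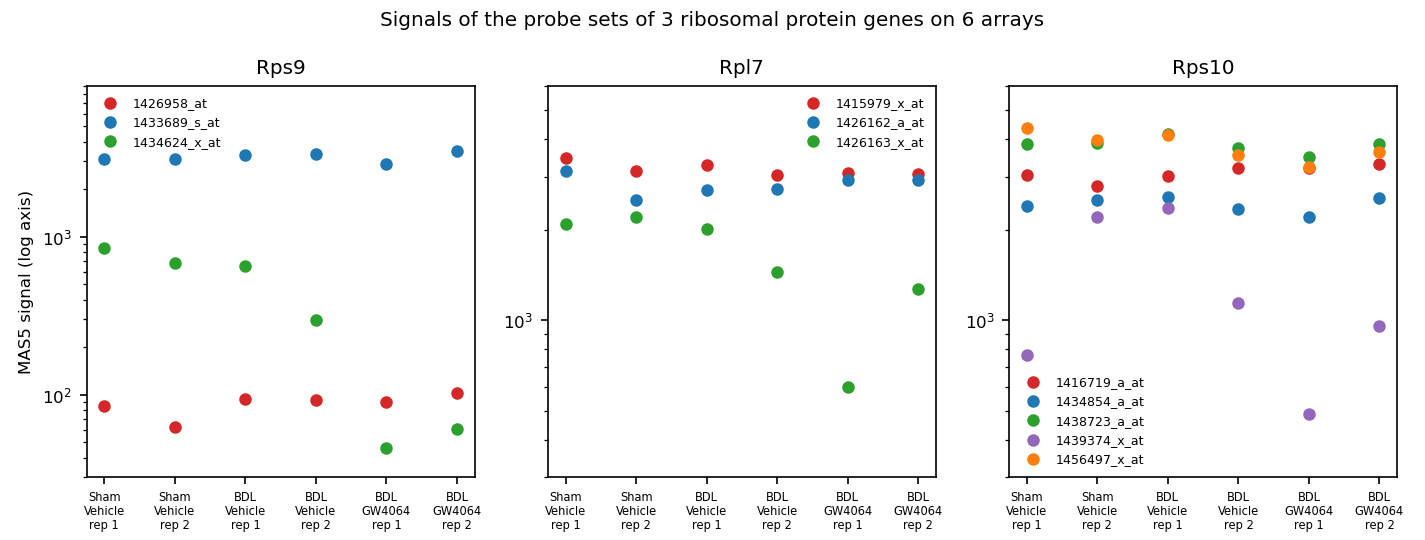
MAS5 signal (log axis) of every tested probe set of Rps9, Rpl7 and Rps10 on each of the 6 arrays, 1 point per array and 1 colour per probe set within a panel. In each gene 1 _x_at probe set leaves the level course of the brightest probe sets; for Rps9 it runs from 850 in Sham_Vehicle replicate 1 to 45.9 in BDL_GW4064 replicate 1.

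In Rpl7 and Rps10 an _x_at probe set also stood apart from the others, with smaller differences. For Rps10 the Sham_Vehicle arrays of that probe set overlapped those of both other groups, unlike for Rps9. Rpl7 encodes a protein that binds the large subunit's RNA near the 5S particle. Its probe set 1426163_x_at read 2089.1 and 2201 in Sham_Vehicle, 2013.3 and 1443.9 in BDL_Vehicle, and 597.4 and 1264.5 in BDL_GW4064. The BDL_GW4064 arrays were the lowest, and the differences were -0.33 ± 0.32 after ligation, -0.97 ± 0.32 with GW4064 (limma adjusted p = 0.495) and -1.30 ± 0.32 against Sham_Vehicle (adjusted p = 0.177). The brighter sets 1426162_a_at and 1415979_x_at differed by 0.10 ± 0.12 and -0.04 ± 0.10 with GW4064.

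Rps10, mutated in some families with Diamond-Blackfan anaemia, had 5 tested probe sets. The probe set 1439374_x_at read 763.5 and 2197.5 in Sham_Vehicle, 2355.8 and 1140.9 in BDL_Vehicle, and 486.7 and 953 in BDL_GW4064. The arrays of every group differed from each other by far more than those of the other 4 probe sets did, and the BDL_GW4064 arrays were the lowest but for Sham_Vehicle replicate 1. With GW4064 the difference was -1.26 ± 0.54 (limma adjusted p = 0.661), against -0.16 to 0.07 on the other 4 probe sets. Each gene was also taken as the mean of its probe sets, with the diverging ones of Rps9, Rpl7 and Rps10 left out. The median of the 45 genes then moved by less than the spread between arrays in each of the 3 comparisons. The main median already used other probe sets of these genes, so this could not show the weight of the diverging ones.

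Rpl37a and Rps24 came next. For Rpl37a the odd probe set was dim, 1416218_x_at at 30 to 76.6, with 0.56 ± 0.44 with GW4064, which was -0.04 without BDL_GW4064 replicate 1. The bright 1416217_a_at and 1460543_x_at differed by 0.13 ± 0.10 and -0.09 ± 0.10. For Rps24 the probe set furthest from the others was 1455195_at, at 0.18 after ligation and -0.44 with GW4064. Another, 1456628_x_at, read 1094.9 and 1367.9 in Sham_Vehicle, 1018.4 and 791 in BDL_Vehicle, and 816.8 and 1013.2 in BDL_GW4064. Both Sham_Vehicle arrays were the highest, at -0.45 ± 0.18 after ligation (limma adjusted p = 0.751), where the bright 1436064_x_at gave -0.02 ± 0.09.

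Probe sets of a gene differed about as much in this family as on the whole array. Of the 19 genes with at least 2 tested probe sets, 14 (73.7%) had a SD between probe sets under 0.2, averaged over the ligation and the GW4064 differences, as had 67% of 3008 such genes on the array. The SD was 1.15 for Rps9, 0.37 for Rpl7, 0.36 for Rps10, 0.25 for Rpl37a and 0.21 for Rps24, and at most 0.15 for the other 14. In BDL_GW4064 minus Sham_Vehicle, which that mean leaves out, it was 0.28 for Rps15, 0.26 for Rps18 and 0.26 for Rpl27, above 0.20 for Rpl37a and 0.17 for Rps24. The signs of the probe sets were alike in 7 of the 19 genes after ligation and in 6 with GW4064. This count was not made over all genes, and differences near 0 can take either sign, so it marks nothing particular to this family. For Rps15, 1416088_a_at was at 0.38 ± 0.12 against Sham_Vehicle (limma adjusted p = 0.216) and 1416089_at at -0.02 ± 0.10.

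The class of probe set went with the array set of the 18S control. The 38 ribosomal _x_at probe sets had medians of -0.04 after ligation, -0.07 with GW4064 and -0.10 against Sham_Vehicle, and all 1047 _x_at probe sets had -0.07, -0.04 and -0.09. The 27 ribosomal _a_at probe sets, whose oligonucleotides match transcripts of 1 gene, had 0.02, 0.00 and 0.03. All 3 arrays of low 18S signal lay below all 3 of high 18S signal for 21 of the 85 probe sets (24.7%, against 16.5% of all), and above them for 9 (10.6%, against 11.2%). Of the 21, 16 were among the 38 _x_at probe sets (42.1%, against 28% of all _x_at), 4 among the 27 _a_at (14.8%, against 13.5%) and 1 among the 18 plain _at (5.56%, against 15.5%). Of the 9 that lay above, 3 were _x_at (7.89%, against 9.07%) and 6 were _a_at (22.2%, against 14.7%).

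BDL_Vehicle had 1 array in each set, so both comparisons with it mix group and array set, while Sham_Vehicle and BDL_GW4064 lay wholly in 1 set each. Only the BDL_Vehicle pair links the sets. With the array set as a term in the model, the difference of Rps9 1434624_x_at with GW4064 was -2.40 (limma adjusted p = 0.0898). This is the same difference as from BDL_Vehicle replicate 2 alone. Against Sham_Vehicle it was -2.63 (adjusted p = 1).

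**Figure D3:**
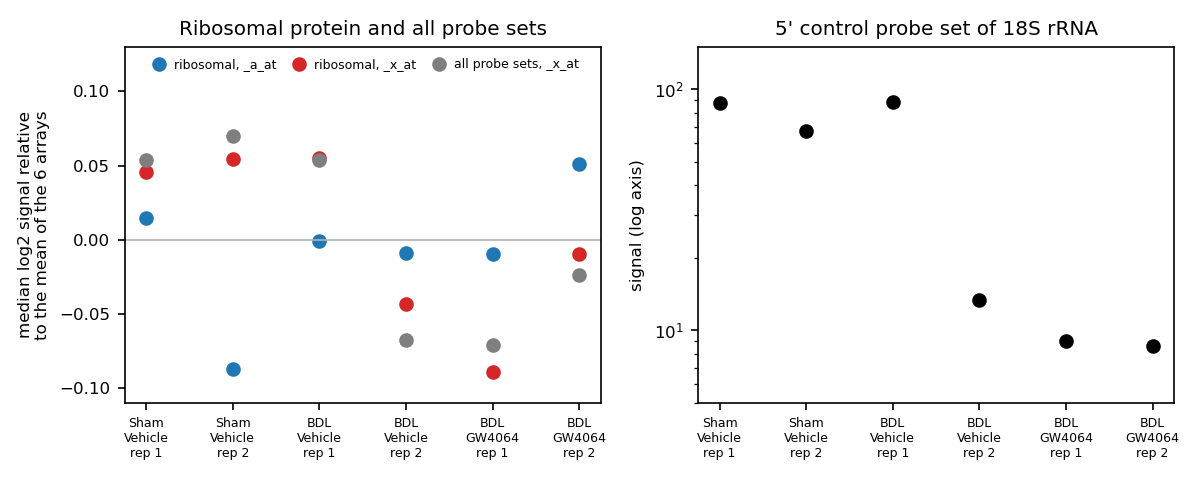
Left, median log2 signal of the ribosomal _a_at and _x_at probe sets and of all _x_at probe sets on each array, relative to each probe set's mean over the 6 arrays. Right, signal of the 5' control probe set of 18S rRNA on a log axis; the 3 arrays at 67.3 to 88.7 are those where the _x_at medians on the left lie above 0.

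Other genes of the translation machinery were read from lists. The ribosomal proteins named by other symbols, Rpsa at 0.00 ± 0.09 and 0.05 ± 0.09 and Fau at -0.03 ± 0.10 and 0.08 ± 0.10 after ligation and with GW4064, had differences within 1 standard error of 0. Of 16 translation factors whose mRNAs carry TOP motifs, 15 were tested, and their medians were -0.02, 0.01 and -0.03. None of these genes passed the threshold by limma in any of the 3 comparisons, and 0 had an unadjusted p under 0.05.

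Mitochondrial ribosomal proteins, which serve the separate ribosome of that organelle, had a median of 0.17 after ligation, with 59 of 74 higher and 15 lower. For 38 of the 74 both BDL_Vehicle arrays lay above both Sham_Vehicle arrays (51.4%, against 18.1% of all genes), and for 4 below (5.41%, against 19.7%). Genes of ribosome assembly and RNA polymerase I, 36 of 40 tested, had a median of 0.27, with 28 higher and 8 lower. In each list 0 genes passed the adjusted threshold by limma, and 7 of 74 (9.46%) and 6 of 36 (16.7%) were higher at an unadjusted p under 0.05, against 2.95% of all genes. Over the scalings, pseudocounts, the array set term and arrays left out, these medians ranged from 0.14 to 0.22 and from 0.17 to 0.33.

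With GW4064 the medians were -0.01 for the mitochondrial list, with 35 higher and 39 lower, and -0.13 for the assembly list, with 9 higher and 27 lower. The latter was 0.08 without BDL_GW4064 replicate 1. For BDL_GW4064 against Sham_Vehicle the medians were 0.17 and 0.15. The assembly median there was -0.05 without BDL_GW4064 replicate 2, 0.04 without Sham_Vehicle replicate 2, 0.32 without BDL_GW4064 replicate 1 and 0.28 under the 18S term. Beside these, 7 markers of crypt proliferation summed to 1644.7 and 1471.7 in Sham_Vehicle, 2126.4 and 1770.6 in BDL_Vehicle, and 1427.3 and 2004 in BDL_GW4064, and their part in the list medians was not tested. Whether the lists differ from the cytosolic ribosomal proteins was not tested.

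**Figure D4:**
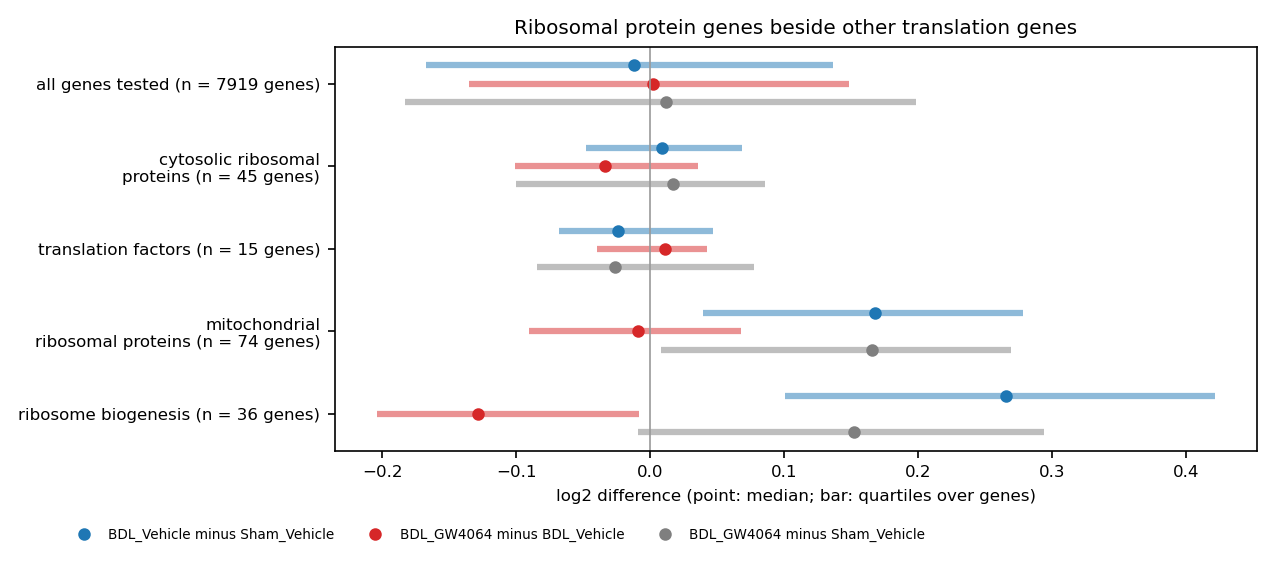
Median (point) and quartiles (bar) of the log2 difference over genes, 1 probe set a gene, for all genes tested, the cytosolic ribosomal proteins and 3 lists, in the 3 comparisons, which share arrays. The cytosolic ribosomal proteins and translation factors lie around 0, while the mitochondrial and assembly lists lie above 0 in BDL_Vehicle minus Sham_Vehicle, at 0.17 and 0.27.

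Many ribosomal protein transcripts are read only by probe sets that the annotation assigns to several genes. There were 102 such probe sets, 94 of them tested, and 28 ribosomal protein genes occurred only there and so are not among the 48. The medians of the 94 probe sets were -0.02, 0.00 and -0.02 in the order of the comparisons. Their differences ran from -0.78 to 0.24, from -1.13 to 0.37 and from -1.73 to 0.44, so single ones were not level. By limma 0 passed the threshold, and the smallest adjusted p-values were 0.751, 0.429 and 0.198. The signals of the family reach 5987 for Rpl41, on arrays whose highest signals were 6412.2 to 7534.4, and whether such bright probe sets were saturated was not tested.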

How the data were processed

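The authors deposited array intensity on a linear scale, as MAS5 signals per the submitters' processing notes. The sources used here give neither the MAS5 version nor detection calls. Each labelling reaction started from 5 µg of total RNA and was run in batches, per the labels' protocols, without naming which sample was in which. After 64 controls were left out of 22690 probe sets, 20380 had 1 annotated gene, 691 had several and 1555 had none. Signals were analysed as log2(signal + 4), which understates changes at low signal, after leaving out the lowest 40% by mean. limma 3.58.1 in R 4.3.3 fitted 3 group means with a signal trend (3 residual degrees of freedom, 4.71 from the prior); the code was tested on simulated data. No count depth exists for arrays, and 2 arrays a group limit the precision.

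The members and gene lists were chosen with earlier results of these data known. Named genes were those past the threshold, up to 6 a direction and comparison without overlap between arrays, set reference genes and paralogues, and the 5 genes whose probe sets disagreed most. Rps15, Rps29, Rpsa, Fau, Rpl14, Rpl41 and the genes shown for their start sites were added after their values were seen. All 99 probe sets matched RefSeq by gene identifier. Same-numbered arrays correlated at 0.04, -0.12 and 0.09 in their deviations from the group means, so numbers were not taken to pair arrays. The alternatives were other scalings, pseudocounts, filters and variance models, a replicate block, the 18S array set as a term, leaving out each array, and other choices of probe set.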

Additional observations from a re-analysis of the deposited data

How the results depend on the processing

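Rps9 1434624_x_at kept its direction under every alternative run. Its difference could not change under the filters, variance models, replicate block or the leaving out of an array of another group. Against Sham_Vehicle it stayed at -3.75 in all of these, so only the other alternatives could have altered the direction. The side of the threshold on which this probe set fell varied. With GW4064 it passed under quantile normalisation, median centring and a pseudocount of 1, which each made 1 ribosomal probe set called in place of 0. Against Sham_Vehicle it did not pass without the signal trend, with the replicate block (adjusted p = 0.0628) or with the 18S array set as a term, which left 0 ribosomal probe sets called in place of 1. Over all probe sets, the calls for ligation, GW4064 and BDL_GW4064 against Sham_Vehicle, which were 4, 7 and 5, were 2, 4 and 0 with the replicate block and 1, 2 and 0 without the trend. They were 2 and 4 for the first pair without the low-signal filter, 12 for GW4064 with a robust prior, 3 for the last with median centring, and 2 and 0 for the last pair with the 18S term. A crossed pairing for the GW4064 comparison, chosen after seeing the data, called 1 ribosomal probe set.

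Median centring moved the family's median to 0.060 after ligation and to -0.096 with GW4064, where 8 of 45 genes were then higher. With the 18S term 26 were higher with GW4064 and 33 against Sham_Vehicle, and 35 were higher after ligation with median centring. On plain _at probe sets alone, which cover 17 genes, 11, 5 and 8 were higher in the 3 comparisons and the median after ligation was 0.067. Leaving out 1 array gave medians from -0.028 to 0.050 after ligation, -0.057 to 0.014 with GW4064 and -0.045 to 0.053 against Sham_Vehicle. The numbers of genes higher ran from 17 to 31, 16 to 27 and 17 to 28. Ribosomal probe sets called ran from 0 to 0, 0 to 1 and 0 to 1, and all probe sets called from 1 to 6, 2 to 48 and 0 to 29. The ligation calls were 2 without Sham_Vehicle replicate 1 and 1 without BDL_Vehicle replicate 1. The GW4064 calls were 48 and 18 without BDL_GW4064 replicates 1 and 2, and 2 and 4 without BDL_Vehicle replicates 1 and 2. Against Sham_Vehicle they were 29 and 9 without BDL_GW4064 replicates 1 and 2, and 0 without either Sham_Vehicle array.

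With the 18S term 13 of 34 BDL_GW4064 differences from Sham_Vehicle turned sign, 5 of which had been at least 1 standard error from 0. These 5 turned to 0.046 for Rpl10a, 0.013 for Rpl13a, 0.43 for Rpl39, -0.065 for Rpl7a and 0.12 for Rps10 1439374_x_at. Rpl8 turned to -0.011 after ligation without Sham_Vehicle replicate 2. Without 1 array, Rps24 1455195_at ran from -0.54 to 0.0075 against Sham_Vehicle, and Rpl37a 1416218_x_at from -0.040 to 1.15 with GW4064. None of these probe sets had passed the threshold, and the cause was not tested. Without detection calls, probe sets near the signal bound of 37.1 have the least certain values.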
